A study of Mus musculus with 8 samples.

Results

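Collagens are the triple-helical proteins of the extracellular matrix, and 10 collagen genes were followed here across mammary tumour cells sorted by a colour reporter. The genes are Col1a2, Col6a1, Col8a1, Col4a1, Col4a2, Col4a5, Col4a6, Col7a1, Col12a1 and Col18a1, taken by name as 10 of the 16647 gene rows of a single-cell count table. Of 44 collagen genes looked up by symbol, 38 have a row, and these 10 are the rows that passed the level filter described below. They were set side by side by collagen class, by shared promoter region and by the number of cells that carry them.

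Every collagen chain repeats a glycine-X-Y triplet, and chains wind together in triple helices inside the secretory pathway before they are released. Fibrillar collagens such as type I line up into the stiff fibres of connective tissue, and fibroblasts and cells in a mesenchymal state are their usual makers. Type IV collagen forms the sheet-like network of the basement membrane under epithelia. Its chains are encoded in head-to-head gene pairs, which in mammals share the stretch of DNA between their start sites. The other members fill more special places: beaded filaments (Col6a1), a hexagonal network first known from vessel walls and the cornea (Col8a1), the anchoring fibrils under skin (Col7a1), the surface of fibrils (Col12a1) and vascular and epithelial basement membranes (Col18a1, whose C-terminal fragment is endostatin). By class, 1 of the 10 genes is fibrillar (Col1a2) and 4 are type IV.

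The cells are Tri-PyMT cells, a cultured mouse line from a primary metastatic mammary tumour of a triple transgenic animal. Cells of both groups carry all 3 of its transgenic alleles: MMTV-PyMT, which drives the tumour, Fsp1-cre, and the colour reporter Rosa26mT/mG. Red membrane protein is made from the uncut reporter, and green once Cre has removed the red cassette. The Cre is under the control of the Fsp1 (S100a4) promoter. Sorted GFP+ and RFP+ cells, cultured with serum and with no further treatment, were profiled by Drop-seq, which counts polyadenylated RNA per cell barcode. Each population has 4 labelled samples, from 2 libraries that were each run on 2 lanes, and the library is the replicate (n = 2). Separate cultures are not stated, so the spread behind each p-value is that of these libraries and may be technical only.

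The libraries labelled GFP+ held 2598187 and 2550319 counts from 1597 and 1798 cells, and those labelled RFP+ held 3081009 and 2988631 counts from 1998 and 1997 cells. Any 2 libraries share 2 cell barcodes, and none of those barcodes was kept as a cell in more than 1 library. The reporter rows go against the labels. The row named for RFP stood at 2943 and 3053 CPM (counts per 1000000 counts of the library) in libraries labelled GFP+ and at 132 and 137 CPM in libraries labelled RFP+. The row named for GFP stood at 99.7 and 104 CPM in libraries labelled GFP+ and at 612 and 590 CPM in those labelled RFP+. All directions below are therefore those of the labelled libraries. S100a4, the source of the Cre promoter, averaged 1979 ± 191 CPM in libraries labelled GFP+ and 662 ± 20.3 CPM in libraries labelled RFP+ (SD, n = 2 each). Of the fixed markers, all 6 epithelial genes fell and all 5 mesenchymal genes rose in libraries labelled GFP+ (edgeR, adjusted p below 0.05). Of all tested genes 14.9% were called lower and 15.7% higher. S100a4 is 1 of those 5 mesenchymal genes, and its promoter drives the Cre behind the sorted colours. The summed epithelial level was 932 and 876 CPM in the libraries labelled GFP+, against 2172 and 2244 CPM in those labelled RFP+.

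The 10 collagens did not move as a block. In libraries labelled GFP+, the fibrillar gene Col1a2 was 17.4 times its level in libraries labelled RFP+, Col8a1 5.26 times and Col6a1 3.64 times, whereas the type IV gene Col4a5 was 1.52 times. Col4a1, Col4a2, Col4a6, Col7a1, Col12a1 and Col18a1 did not pass the test. The test was edgeR's quasi-likelihood F test on each library's summed counts, with Benjamini-Hochberg adjustment over all 7595 genes tested. At an adjusted p below 0.05, 4 of the 10 members were called, all 4 higher in libraries labelled GFP+, against 30.5% of all tested genes called in either direction and 15.7% called higher. Of all tested genes 14.9% were called lower, and no member was. The smallest unadjusted p of a member with a negative fold was 0.238. DESeq2's Wald test called 3 of the 10, without Col4a5, against 9.66% of all tested genes. The median log2 fold of the members was 0.44, and that of all tested genes 0.0024. The level filter asked for a mean of at least 10 CPM in either population and 20 counts in all. All 10 members passed it, 7 with at least 10 CPM in both populations, while Col1a2, Col4a6 and Col7a1 passed only through the libraries labelled GFP+. Col1a2, Col4a6 and Col7a1 could be called higher only, so the lack of lower calls says nothing about them.

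**Figure D1:**
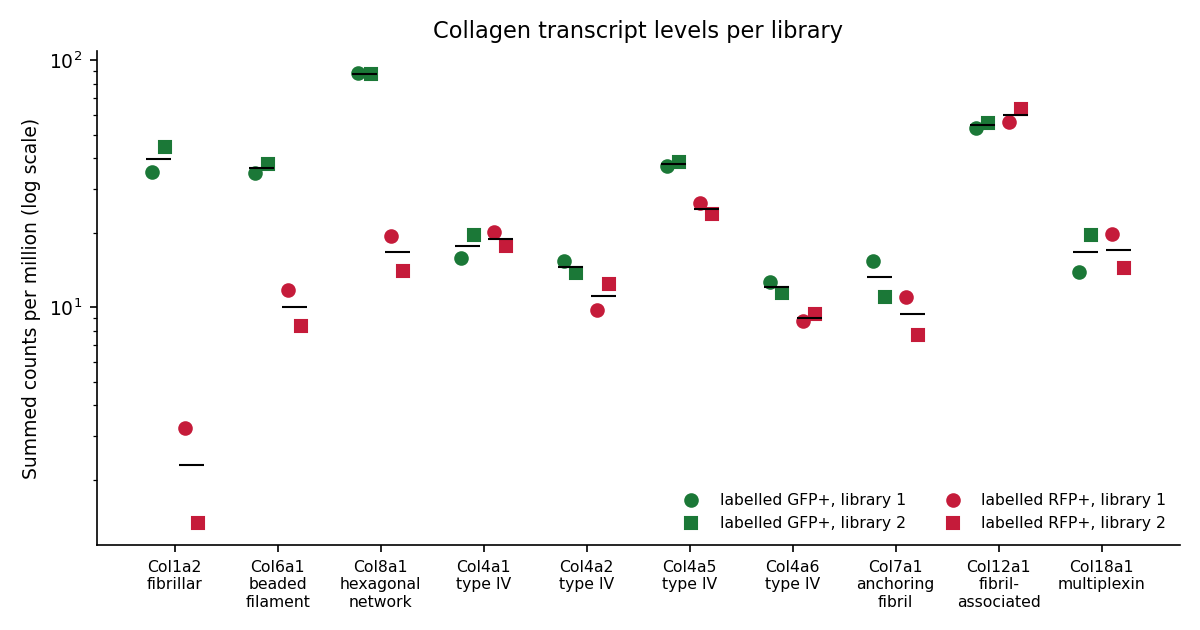
CPM of the 10 collagen genes in each library (y axis, log scale). Each point is a library, green for those labelled GFP+ and red for those labelled RFP+, with circles for library 1 and squares for library 2, and short lines are population means. Col1a2, Col6a1 and Col8a1 stand clearly apart between populations, while the points of Col4a1 and Col18a1 interleave.

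Col1a2 encodes a chain of type I collagen, the main fibrillar collagen. It lies on chromosome 6 at 4504814 to 4541544 of GRCm38 on the plus strand. It had 35.4 and 44.3 CPM in libraries labelled GFP+, against 3.25 and 1.34 CPM in libraries labelled RFP+, from 92 and 113 counts against 10 and 4. The populations do not overlap, and the RFP+ labelled libraries hold so few counts that the fold is set by a handful of counts there. The log2 fold was 4.07 ± 0.29 (SE, 95% interval 3.48 to 4.66, edgeR adjusted p 1.01e-14), the fifth highest of the 7595 genes when ordered from the most raised in libraries labelled GFP+. Leaving out any single library kept it called, with log2 folds of 3.60 to 4.83.

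Col8a1, a network-forming short-chain collagen, lies on chromosome 16 at 57624258 to 57754737 on the minus strand. It had 88.5 and 87.8 CPM in libraries labelled GFP+, against 19.5 and 14.1 CPM in libraries labelled RFP+, from 230 and 224 counts against 60 and 42. The GFP+ labelled libraries are almost equal, and both are above either RFP+ labelled library. Its log2 fold was 2.38 ± 0.15 (SE, interval 2.08 to 2.67, edgeR adjusted p 1.00e-16). Col6a1, a chain of the beaded filaments that surround cells, lies on chromosome 10 at 76708792 to 76726168 on the minus strand. It had 35.0 and 38.0 CPM in libraries labelled GFP+, against 11.7 and 8.37 CPM in libraries labelled RFP+. Its log2 fold was 1.84 ± 0.20 (SE, interval 1.43 to 2.26, edgeR adjusted p 1.99e-09), and its populations do not overlap. Col1a2, Col8a1 and Col6a1 rank 5, 12 and 22 in that order, which does not count genes that fell. That order includes the RFP-named reporter row, which stands above Col1a2 at a log2 fold of 4.47. A call with a log2 fold of at least 1.5 was made for 0.487% of tested genes, and these are 3 of them. The cut of 1.5 was not set beforehand and lies below all 3 folds, so that share is a description only. Col1a2 passed the level filter only through the libraries labelled GFP+.

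The type IV genes stood closer together. Col4a5 had 37.3 and 38.8 CPM in libraries labelled GFP+, against 26.3 and 23.8 CPM in libraries labelled RFP+. It does not overlap between populations, with a log2 fold of 0.59 ± 0.16 (SE, interval 0.27 to 0.91, edgeR adjusted p 0.00375). DESeq2 gave the same fold of 0.59 with an adjusted p of 0.166. Col4a6, its neighbour on chromosome X, had 12.7 and 11.4 CPM in libraries labelled GFP+, against 8.76 and 9.37 CPM in libraries labelled RFP+, and a log2 fold of 0.39 ± 0.26 (SE, edgeR adjusted p 0.266). Its interval, -0.14 to 0.93, takes in both no difference and the fold of Col4a5.

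Col4a1 and Col4a2 encode the chains of the type IV network found in nearly all basement membranes. Col4a1 had 15.8 and 19.6 CPM in libraries labelled GFP+, against 20.1 and 17.7 CPM in libraries labelled RFP+, so the ranges of the populations overlap. Its log2 fold was -0.11 ± 0.21 (SE, interval -0.54 to 0.32, edgeR adjusted p 0.720). Col4a2 had 15.4 and 13.7 CPM in libraries labelled GFP+, against 9.74 and 12.4 CPM in libraries labelled RFP+. Its log2 fold was 0.38 ± 0.25 (SE, interval -0.12 to 0.89, edgeR adjusted p 0.249). The upper ends of these intervals lie below the lower end of Col1a2's, and so do those of every other member, Col8a1 and Col6a1 included. Of the other type IV genes, named here outside the rule, Col4a3 had 1 count and Col4a4 had 2 counts in all 4 libraries together.

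Col7a1, Col12a1 and Col18a1 serve the border between epithelium and connective tissue. Col7a1 had 15.4 and 11.0 CPM in libraries labelled GFP+, against 11.0 and 7.70 CPM in libraries labelled RFP+ (log2 fold 0.48 ± 0.27 SE, edgeR adjusted p 0.177). Col12a1 had 53.1 and 55.7 CPM in libraries labelled GFP+, against 56.2 and 63.2 CPM in libraries labelled RFP+. Its log2 fold was -0.15 ± 0.12 (SE, interval -0.39 to 0.10, edgeR adjusted p 0.386). With gene length and GC content as offsets in the fit, that fold became -0.42 with an edgeR adjusted p of 0.00934, so the call depends on that correction. Col18a1 had 13.9 and 19.6 CPM in libraries labelled GFP+, against 19.8 and 14.4 CPM in libraries labelled RFP+. The 2 libraries of each population differ as much as the populations do, with a log2 fold of -0.05 ± 0.23 (SE, edgeR adjusted p 0.893). In all, 7 of the 10 members had no overlap between the 2 libraries of each population, against 65.0% of all tested genes.

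**Figure D2:**
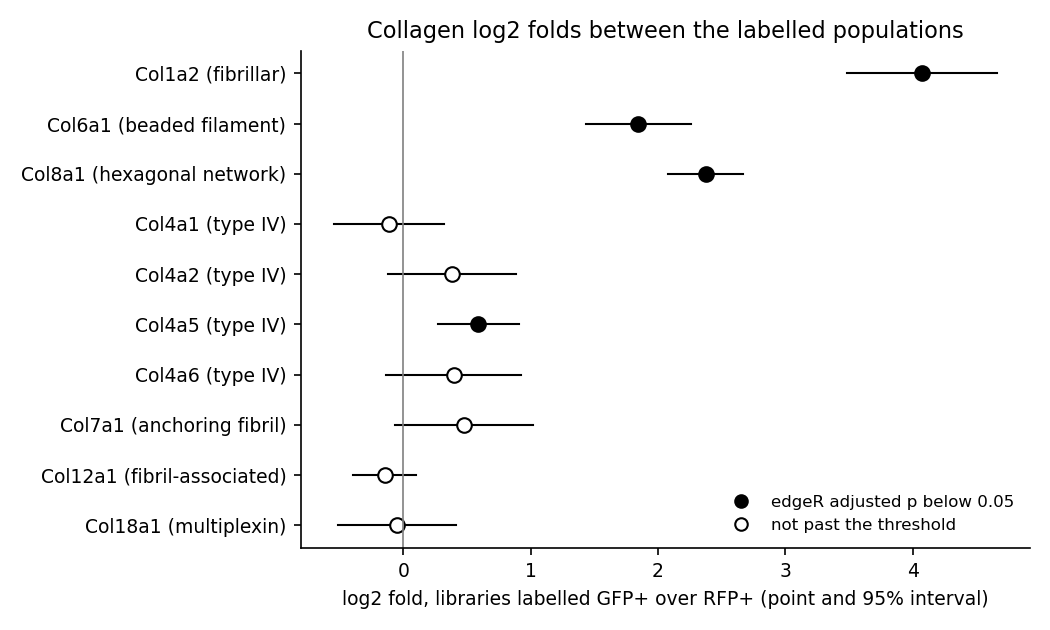
Log2 fold of each collagen gene (x axis), libraries labelled GFP+ over those labelled RFP+, with its 95% interval from edgeR and n = 2 libraries each. Filled points passed the adjusted p threshold: the intervals of Col1a2, Col6a1 and Col8a1 lie wholly above 1, that of Col4a5 lies between 0.27 and 0.91, and the other 6 include 0.

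Fibrillar and type IV collagen were also summed by class, over all rows of each class in the table. Fibrillar rows, 11 in number, summed to 58.5 and 63.5 CPM in libraries labelled GFP+, against 11.7 and 10.0 CPM in libraries labelled RFP+. Type IV rows, 6 in number, summed to 81.2 and 83.9 CPM in libraries labelled GFP+, against 65.2 and 63.6 CPM in those labelled RFP+. The fibrillar sum was 0.720 and 0.757 of the type IV sum in libraries labelled GFP+ and 0.179 and 0.158 of it in libraries labelled RFP+, with no overlap. Without Col1a2, left out after its values were seen, the fibrillar sum was 0.284 and 0.229 of the type IV sum in libraries labelled GFP+ and 0.129 and 0.137 of it in libraries labelled RFP+. An exact permutation test over 2 against 2 libraries cannot go below 0.33, so no test was made of these sums.

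The level filter left 28 other collagen rows untested, of which 5 had no count, 18 had between 1 and 8 counts and 5 had more than 19. Summed over all 28, these rows had 38.1 and 38.8 CPM in libraries labelled GFP+, against 15.9 and 16.1 CPM in libraries labelled RFP+. Fitted with no filter over 15875 genes, where edgeR called 10.4% of genes, 4 of them were called, all higher in libraries labelled GFP+. Col3a1, the type III fibrillar collagen, had 13 and 8 counts in libraries labelled GFP+, against 2 and 1 in libraries labelled RFP+ (edgeR adjusted p 0.0104). Col5a1, a minor fibrillar chain that helps to start fibrils, had 30 and 21 counts against 10 and 12 in libraries labelled RFP+, with a log2 fold of 1.42 ± 0.32 (SE, edgeR adjusted p 0.0105). Col6a2, a partner chain of Col6a1 in the type VI filament, had 16 and 26 counts in libraries labelled GFP+, against 6 and 10 in those labelled RFP+ (log2 fold 1.60 ± 0.40 SE, edgeR adjusted p 0.0178). Col16a1, a fibril-associated collagen, had 19 counts in each library labelled GFP+, against 9 and 5 in those labelled RFP+ (log2 fold 1.64 ± 0.38 SE, edgeR adjusted p 0.0117). Col11a1, also fibrillar, had 8 counts in each library labelled GFP+ and 10 in each labelled RFP+ (edgeR adjusted p 0.929).

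The partner chain of Col1a2 was almost missing. Type I collagen is mostly built from Col1a1 and Col1a2 chains together, with Col1a1 in excess. Col1a1 had 1 and 4 counts in libraries labelled GFP+ and 0 in both libraries labelled RFP+, where the libraries' depth allows up to 0.974 and 1.004 CPM (3 counts). Col1a2 had 92 and 113 counts in the same libraries labelled GFP+. These counts are not corrected for transcript length, and how the counting treats each gene's 3' end is not given in the sources used here.

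Promoter windows, from 250 bases before to 50 bases after the start, were read from RefSeq (build GRCm38.p6) for 9 of the 10 genes. They are shown for the 3 genes that rose most and for the 4 type IV genes, because the type IV genes stand in pairs. Capitals mark matches, on either strand, to 4 short promoter words. The first is the TATA box, TATAAA. The second is the CCAAT box, which reads ATTGG on the opposite strand. The third is the GC box, GGGCGG, which binds Sp1 and reads CCGCCC from the opposite strand. The last is the E2 box, CACCTG, the word bound by the Snail and Zeb repressors of epithelial genes. Of 32851 mouse promoter windows of the same length, 13.6% hold the TATA box, 37.4% the CCAAT box, 35.7% the GC box and 20.2% the E2 box. Each sequence is written 5' to 3' along its gene's strand.
Col1a2 (chr6:4505368-4505667, plus strand): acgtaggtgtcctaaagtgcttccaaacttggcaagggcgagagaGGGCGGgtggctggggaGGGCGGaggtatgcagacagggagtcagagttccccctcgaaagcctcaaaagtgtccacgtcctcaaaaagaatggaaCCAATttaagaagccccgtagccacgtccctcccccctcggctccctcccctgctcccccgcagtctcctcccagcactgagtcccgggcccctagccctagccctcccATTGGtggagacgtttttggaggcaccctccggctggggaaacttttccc
Col6a1 (chr10:76725995-76726294, minus strand): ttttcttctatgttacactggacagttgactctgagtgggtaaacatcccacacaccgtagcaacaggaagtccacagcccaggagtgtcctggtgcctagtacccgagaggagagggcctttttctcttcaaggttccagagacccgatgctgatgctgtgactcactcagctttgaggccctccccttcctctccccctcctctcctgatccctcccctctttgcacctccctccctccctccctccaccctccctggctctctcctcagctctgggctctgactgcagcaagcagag
Col8a1 (chr16:57754688-57754987, minus strand): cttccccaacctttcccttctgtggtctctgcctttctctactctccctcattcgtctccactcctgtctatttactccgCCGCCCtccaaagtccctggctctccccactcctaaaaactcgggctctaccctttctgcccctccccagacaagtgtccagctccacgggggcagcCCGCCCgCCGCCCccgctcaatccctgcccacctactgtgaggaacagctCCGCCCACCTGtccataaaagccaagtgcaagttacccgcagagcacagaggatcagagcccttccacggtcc
Col4a1 (chr8:11312777-11313076, minus strand): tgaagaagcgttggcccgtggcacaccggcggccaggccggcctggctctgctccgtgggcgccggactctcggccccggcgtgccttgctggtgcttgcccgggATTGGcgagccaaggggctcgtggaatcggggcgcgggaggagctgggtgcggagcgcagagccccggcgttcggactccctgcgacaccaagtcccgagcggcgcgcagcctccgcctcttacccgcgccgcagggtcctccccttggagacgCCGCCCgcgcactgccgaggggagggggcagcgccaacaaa
Col4a2 (chr8:11312555-11312854, plus strand): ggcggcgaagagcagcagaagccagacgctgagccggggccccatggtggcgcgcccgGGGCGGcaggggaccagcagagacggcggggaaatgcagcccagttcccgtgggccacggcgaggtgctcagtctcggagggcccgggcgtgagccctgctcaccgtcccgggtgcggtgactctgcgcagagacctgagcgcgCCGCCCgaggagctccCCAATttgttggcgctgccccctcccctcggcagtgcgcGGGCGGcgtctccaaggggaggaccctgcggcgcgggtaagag
Col4a5 (chrX:141475169-141475468, plus strand): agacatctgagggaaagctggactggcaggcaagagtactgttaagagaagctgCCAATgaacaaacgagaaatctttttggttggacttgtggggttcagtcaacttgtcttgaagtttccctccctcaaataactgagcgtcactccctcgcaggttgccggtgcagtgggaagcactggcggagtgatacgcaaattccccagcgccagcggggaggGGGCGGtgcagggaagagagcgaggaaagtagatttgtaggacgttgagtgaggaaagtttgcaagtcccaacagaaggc
Col4a6 (chrX:141474027-141474326, minus strand): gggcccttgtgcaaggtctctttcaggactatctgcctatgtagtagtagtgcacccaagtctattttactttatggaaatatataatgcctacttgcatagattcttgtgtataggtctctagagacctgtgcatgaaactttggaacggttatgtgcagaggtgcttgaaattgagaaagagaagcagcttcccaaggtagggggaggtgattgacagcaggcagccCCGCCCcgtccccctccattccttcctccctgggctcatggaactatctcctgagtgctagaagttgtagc

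The pair Col4a1 and Col4a2 lies head to head on chromosome 8. The plus-strand start of Col4a2 is at 11312805 and the minus-strand start of Col4a1 at 11312826, 21 bases apart, so the transcripts overlap over those first bases and the 2 windows share 78 bases. Which strand the counting used is not given in the sources used here, and the shared stretch lies at the 5' ends of both genes. The same GC box stands at position 8 of Col4a2 and position 10 of Col4a1, counted from each start. Both windows are rich in G and C, at 74.0% for Col4a1 and 73.7% for Col4a2, against a median of 52.7% over all promoters. The pair Col4a5 and Col4a6 on chromosome X is looser: the starts, at 141475419 on the plus strand and 141474076 on the minus strand, are 1343 bases apart and the windows do not overlap. Their GC content is 52.7% for Col4a5 and 48.3% for Col4a6.

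Among the genes that rose most, Col1a2 has CCAAT boxes at -109 and 1 and GC boxes at -205 and -188. These positions count from the RefSeq start at 4505618, whereas the GENCODE gene starts at 4504814. The whole Col1a2 window lies downstream of the GENCODE start, so its matches depend on the start that was used. Col8a1 has 4 GC boxes and an E2 box at -18, which overlaps the GC box at -23. The window of Col6a1 holds none of the 4 words, and no window of the 9 genes holds the TATA box. These are matches of letters and not sites of binding.

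The head-to-head genes were set against each other library by library. The count of Col4a1 was 1.03 and 1.43 times that of Col4a2 in libraries labelled GFP+, and 2.07 and 1.43 times in libraries labelled RFP+. The second library of each population stood at nearly the same ratio. The count of Col4a5 was 2.94 and 3.41 times that of Col4a6 in libraries labelled GFP+, and 3.00 and 2.54 times in libraries labelled RFP+, which overlap. The annotated longest transcripts of Col4a1 and Col4a2 are 6615 and 6450 bases and those of Col4a5 and Col4a6 6536 and 6648 bases. Neither pair differs much in length, and whether length bears on the ratios was not tested. Col4a5 had more counts than Col4a6 in all 4 libraries.

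The coding sequences differ between the classes in how the repeat is broken up. In the longest open reading frame of the annotation (GENCODE M21), Col1a2 has 1372 residues, and its longest unbroken run of glycine-X-Y triplets is 339 triplets. The 4 type IV chains have between 1669 and 1707 residues, but their repeats are broken into 22 to 25 runs of at least 5 triplets, and the longest runs hold 40 to 66. Repeats make up 77.2% of the residues of Col1a2 and 74.9% to 78.8% of those of the type IV chains, so that share does not set them apart. They make up 58.9% of those of Col8a1, 31.9% of those of Col6a1 and 8.12% of those of Col12a1, the least of the 10.

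Fewer cells held a collagen count than did not, at every depth used. With every count used, 37.8% and 34.5% of cells in libraries labelled GFP+ held at least 1 count of at least 1 of the 10 genes, against 22.7% and 21.1% in libraries labelled RFP+. To take depth out, cells with fewer than 1000 counts were left out and the rest drawn down at random to that number, which kept 1419 and 1233 cells labelled GFP+ and 1545 and 1423 labelled RFP+. At that depth 25.8% and 26.5% of cells labelled GFP+ held a collagen count, against 15.99% and 16.02% of those labelled RFP+. Of these carrying cells, 317 of 366 and 280 of 327 labelled GFP+, and 228 of 247 and 212 of 228 labelled RFP+, held a single member. At 500 counts per cell the shares with a collagen count were 15.4% and 15.7% labelled GFP+ and 9.11% and 8.66% labelled RFP+. At 2000 counts they were 40.8% and 45.6% labelled GFP+ and 25.7% and 24.3% labelled RFP+. The share thus rose with depth, and a cell without a count may still hold these transcripts.

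At 1000 counts per cell, Col8a1 was seen in 7.68% and 7.70% of cells labelled GFP+ (exact Clopper-Pearson 95% intervals 6.35 to 9.19 and 6.28 to 9.34), against 1.88% and 1.48% of cells labelled RFP+ (1.26 to 2.68 and 0.916 to 2.25). Col1a2 was seen in 3.31% and 3.89% of cells labelled GFP+ (2.44 to 4.38 and 2.88 to 5.13), against 0.324% and 0.0703% of cells labelled RFP+, which are 5 cells and 1 cell. Col6a1 was seen in 3.45% and 3.00% of cells labelled GFP+, against 1.10% and 0.914% of cells labelled RFP+. For these genes the shares of the populations do not overlap, and the intervals of every library labelled GFP+ lie above those of both libraries labelled RFP+. Intervals cover the sampling of cells within a library only, and not the spread between libraries. Whether molecular identifiers were collapsed is not given in the sources used here.

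Among the type IV genes, Col4a5 was seen in 3.93% ± 0.069 of cells labelled GFP+ and 2.16% ± 0.030 of cells labelled RFP+ (SD, n = 2 each). At 500 counts per cell the shares were closer together, at 1.47% of cells labelled GFP+ and 1.35% of cells labelled RFP+. Col4a1 was seen in 1.77% ± 0.71 of cells labelled GFP+ and 1.86% ± 0.35 of cells labelled RFP+. Col4a2 was seen in 1.05% ± 0.22 and Col4a6 in 1.09% ± 0.16 of cells labelled GFP+, against 1.12% ± 0.21 and 0.816% ± 0.24 of cells labelled RFP+. The shares of Col4a1, Col4a2 and Col4a6 overlap between populations, as do those of Col7a1, Col12a1 and Col18a1. Col12a1 was seen in 5.32% ± 0.048 of cells labelled GFP+ and 5.44% ± 0.36 of cells labelled RFP+. Without thinning, the shares of Col1a2 were 5.39% ± 0.0069 of cells labelled GFP+ and 0.325% ± 0.18 of cells labelled RFP+, and those of Col8a1 11.9% ± 0.99 of cells labelled GFP+ and 2.30% ± 0.71 of cells labelled RFP+. No cell type that should lack these genes could be read out from these libraries, so the share of cells with a count from free RNA was not measured.

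**Figure D3:**
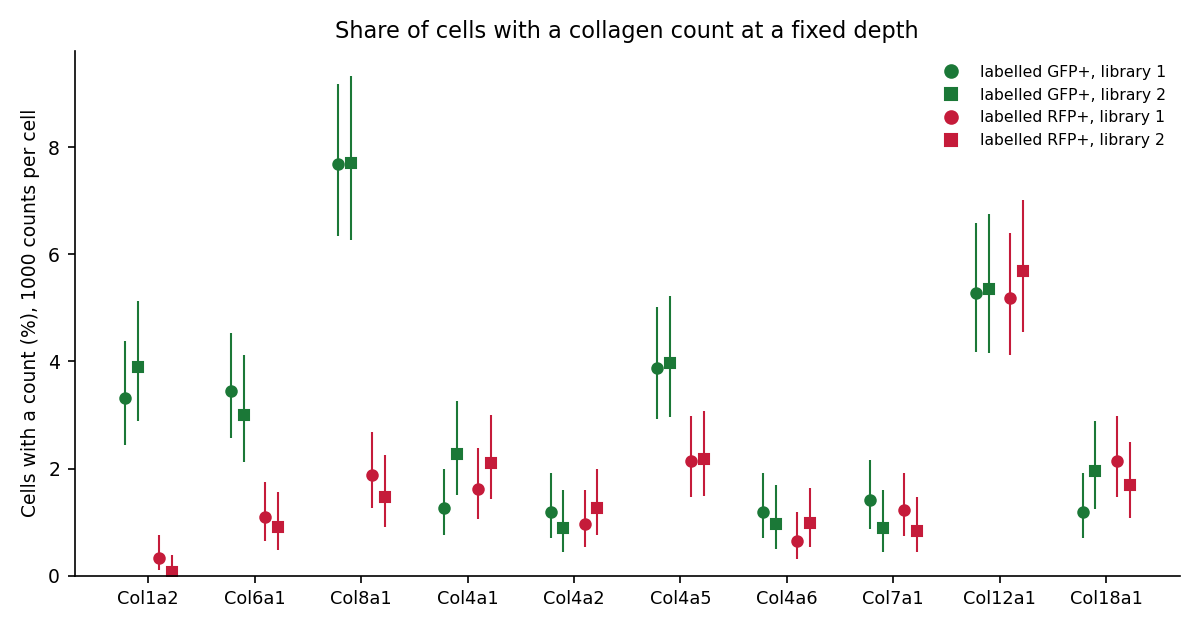
Percentage of cells with at least 1 count of each collagen gene after every cell was thinned to 1000 counts (y axis), with exact 95% intervals. Each point is a library, green for those labelled GFP+ and red for those labelled RFP+, and the highest value is that of Col8a1 in libraries labelled GFP+, at 7.68% and 7.70%.

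The small shares raise the question of whether collagen counts pile up in a few cells. At 1000 counts per cell no cell held more than 3 counts of any member. If a gene's counts fell evenly on equal cells, its number of carrying cells would follow from its count alone. The observed number was 90.6% to 102% of that number (median 97.9%) over the 38 gene and library values with at least 10 counts. The variance of counts per cell over their mean, which is 1 for an even spread, was 0.961 to 1.19, with a median of 1.04. Without thinning, where cells differ in depth, that ratio reached 1.31 and no cell held more than 4 counts. At 2000 counts per cell, Col1a2 in the second library labelled GFP+ was seen in 24 cells, 79.7% of the even number, with a variance ratio of 1.57. In the first library labelled GFP+ these were 98.5% and 1.03. Col8a1 stood at 73.8% and 1.70 in the first library labelled RFP+, from 11 counts, and at 92.4% and 1.15 in the second. In the uncorrected counts carrying cells were also deeper than other cells in 39 of 40 gene and library values, with medians of 1222 to 1867 counts against 1148 to 1357. A deeper cell is more likely to show a count of any sparse gene, and genes outside the 10 were not compared in this way. In summed counts, fewer cells of a type and less RNA per cell cannot be told apart. No small set of cells with most of a member's counts was seen at 1000 counts per cell, which does not show that none exists.

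**Figure D4:**
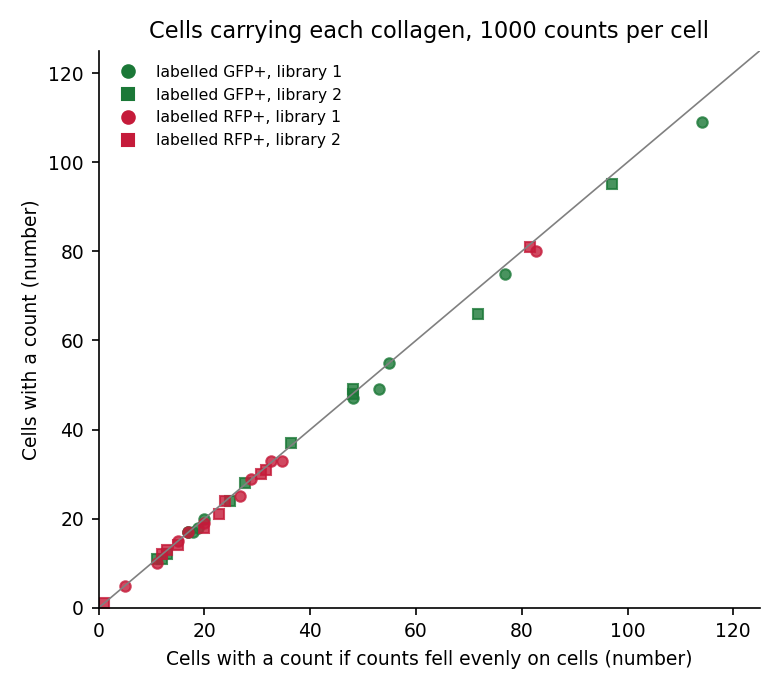
Number of cells with a count of each collagen gene (y axis) against the number that would have a count if its counts fell evenly on the cells (x axis), at 1000 counts per cell. Each point is a gene in a library, green for those labelled GFP+ and red for those labelled RFP+, and points on the grey line have equal numbers; the values with at least 10 counts lie between 90.6% and 102% of the line.

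Genes of a promoter pair were rarely seen in the same cell. At 1000 counts per cell Col4a1 was seen in 101 and Col4a2 in 61 of 5620 cells, and no cell held both, which allows a share of up to 0.0534% (3 cells), against 1.09 cells if they were spread independently in each library. Col4a5 was seen in 168 and Col4a6 in 53 cells, and 1 cell held both, against 1.65. With all counts of the 7390 cells used, 5 cells held Col4a1 and Col4a2 against 3.44, and 11 held Col4a5 and Col4a6 against 5.21. Numbers this small are a description, and at this depth shared use of a promoter region in single cells could not be read. Over all 45 pairs of the 10 genes, 28 were seen together in more cells than independent spread gives at 1000 counts, with a median ratio of 1.11, against 33 pairs and a median of 1.41 without thinning.

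The cells labelled GFP+ that carried Col1a2 were described by other markers at 1000 counts per cell, in 47 and 48 carrying cells. They held 0.681 and 0.479 counts of the 6 epithelial markers per cell, against 0.907 and 0.889 in the other cells of the same libraries. They held 7.04 and 7.63 counts of the 5 mesenchymal markers, against 6.02 and 6.34 in the others. S100a4 stood at 2.60 and 2.42 counts per cell, against 1.85 and 2.07. Epcam, an epithelial adhesion molecule, was seen in 10.6% and 6.25% of the Col1a2 carriers, against 17.3% and 17.6% of the others. Both libraries point the same way in each of these, and S100a4 and Epcam are also part of the marker sums. The collagen chaperone Serpinh1 did not, at 0.149 and 0.250 counts per Col1a2 carrier against 0.192 and 0.227 in the others. Fkbp10 and the RFP-named reporter row also differed in direction between the 2 libraries. Cells of a library are not replicates and no test was made. Carriers of Col8a1 had more mesenchymal counts than other cells in 3 of 4 libraries, both of those labelled GFP+ included. They had more epithelial counts in 3 of 4, the second GFP+ labelled library being the exception. Epcam was higher in Col8a1 carriers in all 4 libraries. Carriers of Col6a1 had more mesenchymal counts in all 4 libraries and fewer epithelial counts in 3. The pattern of Col1a2 carriers was not theirs alone. In libraries labelled GFP+, the 17 and 11 Col4a2 carriers held 0.882 and 0.636 epithelial counts, against 0.900 and 0.875 in other cells. Their mesenchymal counts were 6.12 and 7.91, against 6.05 and 6.38. For Col4a1, Col4a5 and Col4a6 both sums differed in direction between these libraries. Epcam was lower in Col4a5 carriers in all 4 libraries. In the libraries labelled RFP+, 1 of the 9 and 3 of the 4 cells with Col1a2 held a count of the RFP-named reporter row, against 17.7% and 16.5% of the other cells. None of those 13 cells had more counts in that row than in the GFP-named row, and neither did most other cells, of which 7.04% and 7.53% had more.

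Of genes whose counts per cell followed those of Col1a2 in the libraries labelled GFP+, the highest was Nfe2l1, with a mean Pearson r of 0.079 across cells over 3068 genes compared. For Col4a1 over 4 libraries the highest was Flna, at 0.056 over 2813 genes. Both are below the r of 0.1 set for naming a gene as alike, and stand here outside the rule to show how low the highest value was.

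Collagen chains need a set of enzymes and carriers before they leave the cell. Prolyl and lysyl hydroxylases modify the chains, chaperones such as Serpinh1 (HSP47) hold the helix, and large cargo receptors carry it out of the endoplasmic reticulum. Of 29 tested genes in 5 lists for collagen handling, basement membrane partners and collagen receptors, 13 rose, 3 fell and 13 did not pass (edgeR, adjusted p below 0.05), where 15.7% of all tested genes were called higher and 14.9% lower. Of the 13 that rose, 4 averaged under 10 CPM in libraries labelled RFP+, and of the 3 that fell, 2 averaged under 10 CPM in libraries labelled GFP+. Such genes passed the level filter only through the population where they were high and could be called in that direction only. Of 7 tested folding and export genes, 4 rose (Fkbp10 among the genes filtered in through 1 population), with a median log2 fold of 0.31, and the other 3 did not pass. DESeq2 called 8 of the 29 higher. Its 9.66% of all tested genes counts calls in both directions, so it is not the matching share. The lists were chosen with earlier results of these data known.

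Serpinh1 had 196 and 210 CPM in libraries labelled GFP+, against 129 and 133 CPM in libraries labelled RFP+, with a log2 fold of 0.62 ± 0.078 (SE, edgeR adjusted p 3.46e-08). Mia3 (TANGO1), the receptor that packs bulky collagens into carriers, had 97.4 and 91.4 CPM against 77.9 and 72.6 CPM in libraries labelled RFP+ (log2 fold 0.31 ± 0.10 SE, edgeR adjusted p 0.0165). Its adjusted p rose to 0.120 without the first GFP+ labelled library and to 0.0988 without the second RFP+ labelled one. Ctage5, a partner of Mia3 at the exit sites, had 177 and 181 CPM in libraries labelled GFP+, against 185 and 201 CPM in those labelled RFP+ (edgeR adjusted p 0.215). Fkbp10, a foldase that serves type I collagen, had 37 and 33 counts in libraries labelled GFP+, against 1 and 3 in libraries labelled RFP+ (edgeR adjusted p 5.02e-10). Fkbp7, another foldase of the endoplasmic reticulum, had a log2 fold of 0.75 ± 0.20 (SE, edgeR adjusted p 0.00308).

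Of 8 tested genes for hydroxylation of the chains, 3 rose and 1 fell, with a median log2 fold of 0.06. Of all tested genes 15.7% were called higher and 14.9% lower. Of the 3 that rose, Leprel4 passed the level filter only through the libraries labelled GFP+. P4ha1, a catalytic subunit of prolyl 4-hydroxylase, had 82.8 and 71.4 CPM in libraries labelled GFP+, against 49.98 and 51.9 CPM in libraries labelled RFP+ (log2 fold 0.58 ± 0.12 SE, edgeR adjusted p 0.000155). Plod2, a lysyl hydroxylase, had a log2 fold of 0.32 ± 0.12 (SE, edgeR adjusted p 0.0400), and that call was lost without any single library, at adjusted p of 0.0585 to 0.216. Leprel4, now named P3h4 and a partner of the lysyl hydroxylation complex, had 25.0 and 25.9 CPM in libraries labelled GFP+, against 8.76 and 9.70 CPM in libraries labelled RFP+. Its log2 fold was 1.45 ± 0.23 (SE, edgeR adjusted p 3.56e-06). Ppib, the cyclophilin of that compartment, fell, with a log2 fold of -0.30 ± 0.060 (SE, edgeR adjusted p 0.000160). Crtap, a helper of prolyl 3-hydroxylation, had a log2 fold of 0.14 ± 0.13 (SE, edgeR adjusted p 0.429).

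Of 4 tested genes for trimming and cross-linking, 2 rose, where 15.7% of all tested genes were called higher. Of the 2, Loxl3 passed the level filter only through the libraries labelled GFP+. Pcolce, which speeds the cutting of fibrillar procollagen, had 42.7 and 49.0 CPM in libraries labelled GFP+, against 17.5 and 19.7 CPM in libraries labelled RFP+ (log2 fold 1.28 ± 0.16 SE, edgeR adjusted p 5.47e-08). Loxl3, a lysyl oxidase that cross-links collagen, had 29 and 34 counts in libraries labelled GFP+, against 0 and 3 in libraries labelled RFP+ (edgeR adjusted p 2.95e-09). Among 3 tested collagen receptors, Itgb1, the shared beta chain of the collagen-binding integrins, had 1446 and 1384 CPM in libraries labelled GFP+, against 1124 and 1081 CPM in libraries labelled RFP+ (log2 fold 0.35 ± 0.050 SE, edgeR adjusted p 6.67e-07). Ddr2, a receptor tyrosine kinase for fibrillar collagen, had 33 and 37 counts against 8 and 5 in libraries labelled RFP+ (log2 fold 2.63 ± 0.35 SE, edgeR adjusted p 1.18e-07). It passed the level filter only through the libraries labelled GFP+ and could be called in that direction only.

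Basement membrane partners had calls in both directions, with 2 of 7 tested genes rising and 2 falling and a median log2 fold of -0.55. Both that fell averaged under 10 CPM in libraries labelled GFP+. They passed the level filter only through the libraries labelled RFP+ and could be called lower only. The gene at the median, which was not called, also passed only through the libraries labelled RFP+. The shares over all tested genes were 15.7% higher and 14.9% lower. The laminin chain Lamb1 had 68.9 and 60.8 CPM in libraries labelled GFP+, against 54.5 and 56.5 CPM in libraries labelled RFP+ (edgeR adjusted p 0.182). The laminin chains Lama4 and Lamc1 rose by log2 folds of 0.78 and 0.68 (edgeR adjusted p 0.00922 and 0.00405). Lama4 was at an adjusted p of 0.0518 without the first GFP+ labelled library, and Lamc1 at 0.0873 without the second RFP+ labelled one. Frem1, a protein of the embryonic basement membrane, had 12 and 9 counts in libraries labelled GFP+, against 33 and 48 in libraries labelled RFP+ (log2 fold -1.71 ± 0.32 SE, edgeR adjusted p 6.03e-05). It passed the level filter only through the libraries labelled RFP+ and could be called lower only. Fkbp10, Fkbp7, Leprel4, Pcolce, Loxl3, Ddr2, Lama4, Lamc1 and Frem1 were named after their values were seen.

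**Figure D5:**
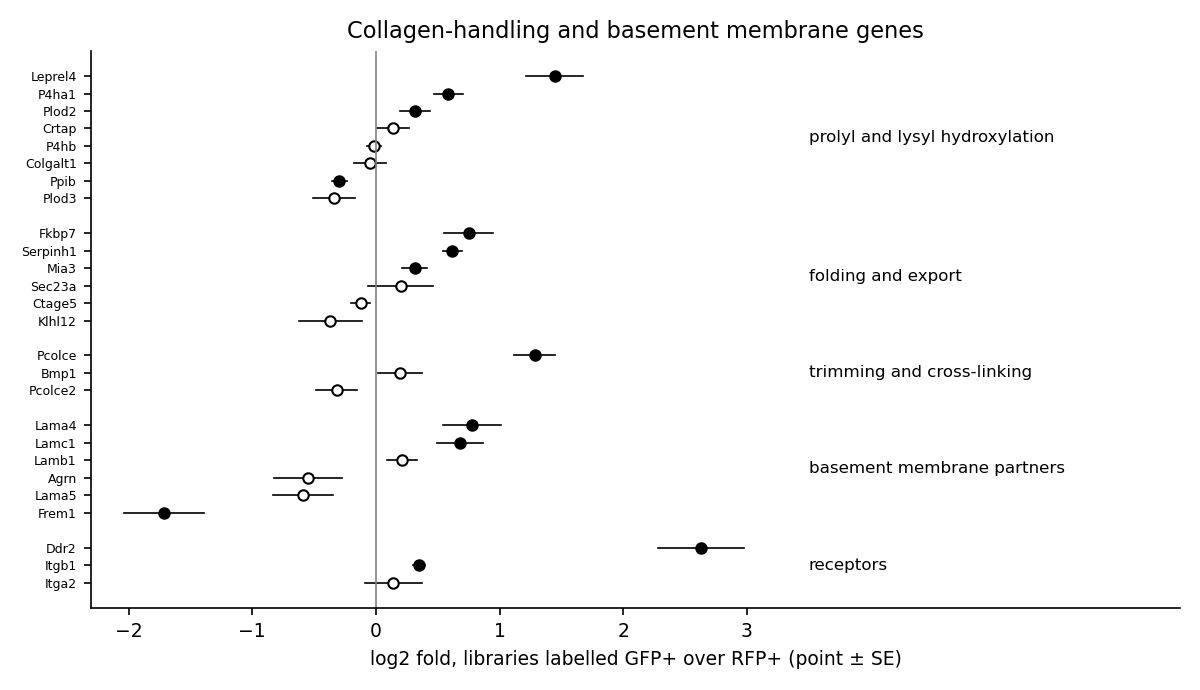
Log2 fold, libraries labelled GFP+ over those labelled RFP+ (x axis, point ± SE), of tested genes of 5 lists, with filled points for an edgeR adjusted p below 0.05. Loxl3 and Fkbp10, with at most 4 counts in the libraries labelled RFP+ together, are left out; folding and export genes lie mostly right of 0 and basement membrane partners on both sides.

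Markers of other cells that a tumour can hold were low. The fibroblast list, with 6 of its 11 genes in the table, summed to 26.9 and 27.8 CPM in libraries labelled GFP+, against 11.0 and 8.37 CPM in libraries labelled RFP+. That list includes Col1a1 and Col3a1. Its one tested gene, Pdgfrb, had 9.62 and 11.0 CPM in libraries labelled GFP+, against 6.17 and 3.68 CPM in those labelled RFP+ (edgeR adjusted p 0.00978). Pdgfrb passed the level filter only through the libraries labelled GFP+ and could be called in that direction only. Its adjusted p was 0.0742 without the second GFP+ labelled library and 0.141 without the second RFP+ labelled one. Dcn, a defining fibroblast gene, had 6 and 2 counts in libraries labelled GFP+ and 2 and 4 in those labelled RFP+, and Pdgfra had 5 and 5 in libraries labelled GFP+ against 3 and 1 in those labelled RFP+. Postn, the untested gene of that list with the most counts, had 20 and 24 counts in libraries labelled GFP+, against 8 and 8 in those labelled RFP+, so it stood higher where Col1a2 did. The immune list, 4 of 6 genes in the table, summed to 2.31 and 3.14 CPM in libraries labelled GFP+ and 4.87 and 2.34 CPM in those labelled RFP+, with Lyz2 at 0 in every library, which allows up to 1.18 CPM. The endothelial list, 3 of 5 genes in the table, summed to at most 1.54 CPM in any library. The part of these markers in the collagen differences was not tested.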

How the data were processed

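Per the labels' protocols, Tri-PyMT cells were sorted by fluorescence, captured with barcoded beads by Drop-seq, amplified and sequenced as Nextera libraries on an Illumina HiSeq. The submitters' processing notes name GRCm38. The authors deposited raw counts per gene and cell, whole numbers up to 342, with no normalization. How reads were aligned and counted, how cells were selected and whether molecular identifiers were collapsed is not given in the sources used here. The 2 lanes of each library stand pooled in its columns, so the library is the replicate.

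Of 7400 cells, 10 were left out by a minimum of 500 counts per cell, and none by a limit of 20% mitochondrial counts. Doublets were not called, and their share is unknown. Libraries of 1 population differed beyond counting noise (chi-square per degree of freedom 1.41 for GFP+ and 1.36 for RFP+). Library sums were tested for the population difference, with no covariate, by the quasi-likelihood F test of edgeR 4.0.16 (R 4.3.3) with TMM scaling and Benjamini-Hochberg adjustment over genes with at least 10 CPM in either population and 20 counts in all. Log2 folds are given ± SE, which is the size of the fold divided by the root of F and rests on a spread shared across genes (common biological coefficient of variation 0.035). On simulated libraries for this comparison (7419 genes), the test recovered 97.0% of 2-fold and 78.6% of 1.5-fold changes, and of 181 calls 7 fell on unchanged genes. The simulation gave every gene the same spread, and its rates are taken over genes of all levels. They do not give the recovery for members with few counts, such as Col4a2, Col4a6 and Col7a1 (SE 0.25, 0.26 and 0.27). Alternatives were DESeq2 1.42.0, other filters, each library left out, deeper or thinned cells, the deepest 5% of cells left out, and length and GC offsets. Gene coordinates and reading frames come from GENCODE M21, and promoter windows from RefSeq, GRCm38.p6. Members and lists were chosen with earlier results of these data known. Genes named are the 10 members, other collagens with at least 20 counts, up to 4 genes per list with the largest folds among those with at least 50 CPM, markers and reporters. Genes named outside that rule are said to be so, and 1 gene of the lists is counted but not reported here by name.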

Additional observations from a re-analysis of the deposited data

How the results depend on the processing

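Col1a2, Col6a1 and Col8a1 kept their direction and their call under every alternative that was run. The called members' log2 folds ranged, with each library left out, from 3.60 to 4.83 for Col1a2, 1.64 to 2.10 for Col6a1, 2.17 to 2.62 for Col8a1 and 0.53 to 0.66 for Col4a5. DESeq2 gave Col4a5 a log2 fold of 0.59 that did not pass, and length and GC offsets gave Col12a1 -0.42 with a call. Members that were not called changed sign: Col4a1 and Col18a1 reached 0.044 and 0.19 with a library left out (lowest values -0.28 and -0.33), and thinned cells gave -0.077 for Col4a2 and 0.0035 for Col12a1. With each library left out, the other ranges were 0.21 to 0.58 for Col4a2, 0.32 to 0.46 for Col4a6, 0.22 to 0.75 for Col7a1 and -0.24 to -0.049 for Col12a1. DESeq2 called 364 genes higher and 370 lower, and thinned cells gave 738 and 728, against 1190 and 1129 in all cells. Of the 5 related lists, 8 genes were called higher with DESeq2 and 7 with thinned cells, and 1 lower at a filter of 20 CPM. That filter left no value for Col4a1, Col4a2, Col4a6, Col7a1 and Col18a1. The ratio of fibrillar to type IV CPM averaged 0.739 in libraries labelled GFP+ and 0.169 in those labelled RFP+, and without Col1a2, a choice made after seeing the data, 0.257 in libraries labelled GFP+ and 0.133 in those labelled RFP+. The cause of the other moves was not tested.

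The log2 ratio of the share of cells moved with the depth. At 500 counts per cell it was 2.27 for Col6a1, 2.71 for Col8a1, 0.12 for Col4a5, 1.02 for Col4a6, 0.85 for Col7a1 and -0.33 for Col12a1. At 2000 counts it was 2.60 for Col8a1, 0.86 for Col4a1, 0.99 for Col4a2, -0.086 for Col4a6, -0.29 for Col12a1 and 0.58 for Col18a1. Unthinned it was 0.44 for Col4a2, 0.65 for Col4a5 and -0.13 for Col12a1. Cells with both genes of a pair made up 0.0677% (Col4a1 and Col4a2) and 0.149% (Col4a5 and Col4a6) unthinned, and 0.157% for Col4a5 and Col4a6 at 2000 counts. Few counts per cell limit every share given here. No paired analysis was possible because the replicate numbers in the labels name lanes and libraries that stand pooled in the columns, and the populations share fewer than 2 library numbers.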
